A study of Mus musculus with 8 samples.

Results

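The 10 genes described here, Xbp1, Hspa5, Hsp90b1, Dnajb9, Dnajc3, Pdia4, Pdia6, Sdf2l1, Creld2 and Ddit3, encode proteins of the endoplasmic reticulum (ER) stress response and of the capacity of cells to fold proteins for secretion. They were taken by name, without use of their measured values, and all 10 were listed among the 11554 genes of the crypt table and the 12701 genes of the villus table. RNA-seq had been done on crypts and villi of the small intestine of control (Ctrl) mice and of Gli1-PtgscKO mice on the C57BL/6 background, 1 month after tamoxifen. In Gli1-PtgscKO mice the tamoxifen-inducible Cre of Gli1-CreERT2 removes floxed Ptgs1 and Ptgs2, which encode the prostaglandin synthases COX1 and COX2, in Gli1+ mesenchymal cells, so the epithelium that was sequenced is not itself the deleted tissue. The animals also carry Rosa26-tdTomato, a Cre reporter. The Ctrl genotype is stated in more than one way in the sources used here (WT with Gli1-CreERT2 and the reporter, or floxed Ptgs1 and Ptgs2 without Cre), and ages are not given there. Each tissue and genotype has 2 replicates by label, and how many mice went into a replicate is not given in the sources used here, so the p-values measure the spread between these libraries only.

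Secreted and membrane proteins fold in the ER with the help of chaperones, co-chaperones and enzymes that form disulfide bonds. When unfolded proteins build up, the sensors IRE1, PERK and ATF6 start the unfolded protein response: IRE1 splices Xbp1 mRNA into the form that codes for an active transcription factor, ATF6 is cut to release another one, and PERK slows translation while favouring ATF4, which acts upstream of Ddit3 (CHOP). In the intestine this machinery is best known from Paneth and goblet cells, which secrete antimicrobial proteins and mucins, and mice that lack Xbp1 in the epithelium lose Paneth cells. Gene-level counts do not tell spliced from unspliced Xbp1.

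ATF6 with its partner NF-Y binds the ER stress response element (ERSE), in which CCAAT and CCACG are spaced by any 9 bases, so the promoters of the 10 genes were searched for it on both strands, from 250 bases before to 50 bases after the RefSeq gene start (GRCm38.p6). The element was found 6 times, in 5 of the 10 promoters, and in 39 of 32851 promoters of that length in all (0.119%). The 6 matches are shown because the sensor ATF6, once cut, is known to act through this element. The letters fixed in the element are in capitals, with 4 flanking bases on each side. Each is written on the strand that reads CCAAT first.
Hspa5, chr2:34772021-34772047, plus strand: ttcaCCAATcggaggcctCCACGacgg
Hsp90b1, chr10:86705634-86705660, minus strand: aagcCCAATcgcaaggagCCACGcttc
Hsp90b1, chr10:86705529-86705555, plus strand: ctcaCCAATcgtgcctcaCCACGcact
Pdia6, chr12:17266487-17266513, plus strand: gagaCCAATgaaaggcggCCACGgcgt
Dnajc3, chr14:118937823-118937849, plus strand: acaaCCAATcagcgccaaCCACGaccc
Creld2, chr15:88819516-88819542, minus strand: tggaCCAATtgaggctcgCCACGagaa
The elements began 65 bases (Hspa5), 98 bases (Pdia6), 105 bases (Dnajc3), 126 bases (Creld2), and 212 and 107 bases (Hsp90b1) before the RefSeq gene start. That start can differ from the GENCODE gene bounds printed with each gene below, and for Hspa5, Hsp90b1 and Pdia6 it lies inside them. Only the Hspa5 element falls within the GENCODE gene. The first Hsp90b1 element lies on the strand of the gene and the other on the opposite strand, as does that of Creld2. The shorter ERSE-II (ATTGG and CCACG spaced by any 1 base, in 0.0365% of promoters) and the XBP1-binding letters TGACGTGG (in 0.676%) were found in 0 of the 10 windows. A match is a description of the letters and no sign of binding in these samples.

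The deposited values are normalized counts, that is, reads per gene divided by a size factor of the library. The reads on the listed genes numbered 16853017 to 21121714 per crypt library and 13477600 to 15751024 per villus library. The 2 Ctrl villus columns were identical in all 12701 genes and were counted as 1 library, so no test was run in villi. The prepared tissues matched their labels: in CPM (the reads of a gene scaled to a common library total), 8 stem cell genes summed to 4908 to 5625 in crypts and 173 to 408 in villi, 10 enterocyte genes to 4787 to 6926 in crypts and 27145 to 32891 in villi, and 8 epithelial genes to at least 8097 in every library. The 6 of 11 mesenchymal markers listed in both tissues summed to 386 to 734 in crypts and 78.2 to 144 in villi. Of the targeted genes, Ptgs1 was at 365.5 and 163.8 normalized counts in Ctrl crypts and at 178.4 and 198.9 in Gli1-PtgscKO crypts, and Ptgs2 and Gli1 were not listed. In an epithelial preparation these values do not check a deletion in the mesenchyme. In Gli1-PtgscKO crypt replicate 1 the difference from the Ctrl mean ran against transcript length. Spearman's rho was -0.657 across 11552 genes, which are not independent, against 0.311 for replicate 2. Both Gli1-PtgscKO villus libraries ran the other way from crypt replicate 1 (rho 0.543 and 0.507 across 12698 genes). For single Ctrl libraries the relation to length was not computed. These relations to length are given beside the results they move with, and their part in them was not tested.

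In crypts, no member of the group differed between Gli1-PtgscKO and Ctrl mice beyond the spread between libraries. At the threshold of the study (p below 0.01 and more than a 2-fold change), limma-trend called 0 of the 10 genes, where it called 0.182% of all 11554 genes, and the adjusted p of each of the 10 was 1.00. At an unadjusted p below 0.05 the count was also 0 of 10 by limma-trend, by edgeR and by DESeq2, against 0.632%, 0.935% and 1.96% of all genes. The median log2 fold change of the 10 was 0.11, beside -0.01 over all genes, and 8 of the 10 estimates were above 0, against 4 of the 10 after a correction for transcript length. In 0 of the 10 did both Gli1-PtgscKO crypts lie on one side of both Ctrl crypts, while 21% of all genes separated in this way, 9.73% higher and 11.3% lower.

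The chaperones came first by level. Hspa5 (ENSMUSG00000026864, chr2:34771970-34777547, 9 exons) encodes BiP, the ER Hsp70 that also holds the stress sensors inactive. It was at 14907 and 11593 normalized counts in Ctrl crypts and at 16116 and 13240 in Gli1-PtgscKO crypts. The groups interleaved, with a log2 fold change of 0.15 ± 0.30 (SE, n = 2 per group) and a 95% interval from -0.56 to 0.86. Hsp90b1 (ENSMUSG00000020048, chr10:86690209-86705509, 13 exons) encodes GRP94, the ER Hsp90. It was at 13772 and 12119 normalized counts in Ctrl and at 12457 and 11977 in Gli1-PtgscKO crypts, with one Gli1-PtgscKO library inside the Ctrl range and the other just below it. Its log2 fold change was -0.08 ± 0.27 (SE), with an interval from -0.73 to 0.56.

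The co-chaperones of BiP differed little as well, except for the smallest of them. Dnajb9 (ERdj4, ENSMUSG00000014905, chr12:44205559-44210326), which brings BiP to misfolded proteins and to IRE1, was at 1041 and 794.9 normalized counts in Ctrl and at 1012 and 829.2 in Gli1-PtgscKO crypts. The 2 groups covered nearly the same range, and the log2 fold change was 0.01 ± 0.27 (SE). Dnajc3 (P58IPK, ENSMUSG00000022136, chr14:118937976-118981697), a co-chaperone with the longest transcript of the 10 (5141 bases), was at 3325 and 3544 in Ctrl and at 2576 and 3386 in Gli1-PtgscKO crypts. Replicate 1 alone was low, and the log2 fold change of -0.22 ± 0.25 (SE) had an interval from -0.82 to 0.39. Sdf2l1 (ENSMUSG00000022769, chr16:17130138-17132383), a partner of ER J-proteins in a chaperone complex, was at 581.9 and 448.3 in Ctrl crypts and at 1026 and 558.7 in Gli1-PtgscKO crypts. Here too replicate 1 stood alone, this time high, while replicate 2 lay between the Ctrl libraries. The log2 fold change of Sdf2l1, 0.57 ± 0.36 (SE), was the highest of the 10, and its interval ran from -0.29 to 1.43.

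Among the genes of disulfide bonding, Pdia4 (ENSMUSG00000025823, chr6:47796141-47813430) and Pdia6 (ENSMUSG00000020571, chr12:17266545-17284770) encode protein disulfide isomerases. Pdia4 was at 3417 and 3071 normalized counts in Ctrl and at 3246 and 3394 in Gli1-PtgscKO crypts, with both Gli1-PtgscKO values inside the Ctrl range and a log2 fold change of 0.03 ± 0.23 (SE). Pdia6 was at 4746 and 4601 in Ctrl and at 6619 and 4385 in Gli1-PtgscKO crypts, so its 2 Gli1-PtgscKO libraries lay above and below the Ctrl pair. Its log2 fold change was 0.21 ± 0.29 (SE). Creld2 (ENSMUSG00000023272, chr15:88819646-88826683), an ER-resident protein with EGF-like repeats that is induced by ER stress, was at 771.2 and 521.2 in Ctrl and at 1281 and 582.2 in Gli1-PtgscKO crypts. As with Sdf2l1, only replicate 1 was high, and the log2 fold change of 0.45 ± 0.42 (SE) had an interval from -0.56 to 1.45.

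Neither of the transcription factor genes separated. Xbp1 (ENSMUSG00000020484, chr11:5520659-5525893, 5 exons) was at 4935 and 4720 normalized counts in Ctrl and at 5648 and 4542 in Gli1-PtgscKO crypts. Its Gli1-PtgscKO libraries lay above and below the Ctrl pair, and the log2 fold change of 0.07 ± 0.25 (SE) had an interval from -0.53 to 0.67. Ddit3 (ENSMUSG00000025408, chr10:127290774-127296288) encodes CHOP, which promotes apoptosis in prolonged stress. It was the lowest of the 10, at 73.1 and 57.6 in Ctrl and at 86.0 and 65.9 in Gli1-PtgscKO crypts, which rest on 59 to 82 reads per library. At that depth the interval of its log2 fold change of 0.21 ± 0.50 (SE) was the widest, from -0.99 to 1.41, so differences inside it were not excluded.

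**Figure D1:**
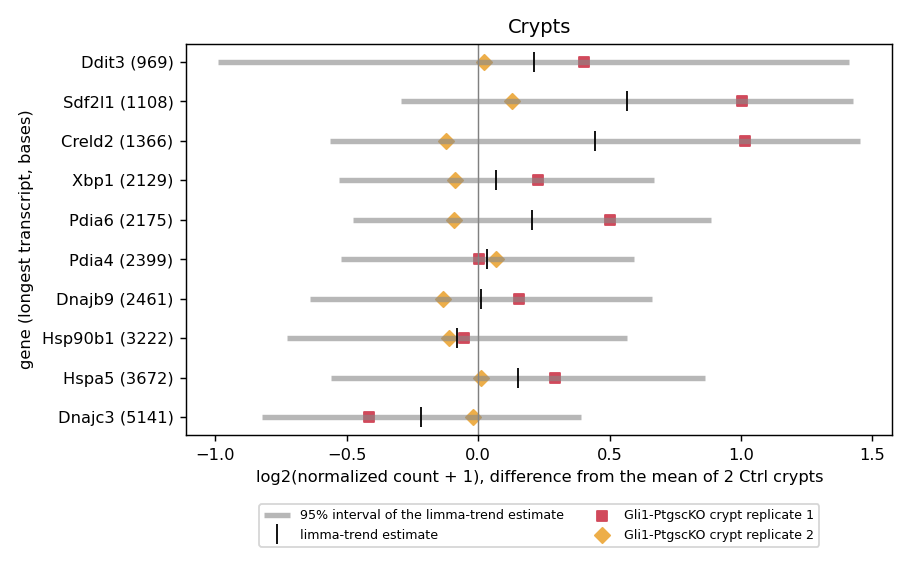
Difference of each gene from the mean of the 2 Ctrl crypts on the log2(normalized count + 1) scale (x axis), with genes ordered by the length of their longest transcript in bases (y axis); squares and diamonds are the 2 Gli1-PtgscKO crypt libraries, black ticks the limma-trend estimates and grey bars their 95% intervals. All 10 intervals contain 0, replicate 2 stays within 0.13 of the Ctrl mean, and replicate 1 reaches 1.01 for Creld2 and Sdf2l1 and -0.41 for Dnajc3.

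The 2 Gli1-PtgscKO crypts differed from each other, as the Ctrl pair also did for Hspa5, Dnajb9 and Creld2. The difference of replicate 1 from the Ctrl mean on the log2 scale was 1.01 for Creld2 and for Sdf2l1, 0.50 for Pdia6, 0.40 for Ddit3, 0.29 for Hspa5, 0.23 for Xbp1 and 0.15 for Dnajb9, whereas Pdia4 (0.00), Hsp90b1 (-0.05) and Dnajc3 (-0.41) were not above the Ctrl mean. In replicate 2 all 10 genes lay between -0.13 and 0.13. Without replicate 2, Sdf2l1 (limma-trend adjusted p = 0.025) and Creld2 (adjusted p = 0.033) passed the threshold of the study, where 7.63% of all genes then did and 17.2% had an adjusted p below 0.05. The single remaining library is there assumed to vary as the Ctrl libraries do.

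The order of the genes in replicate 1 ran with transcript length, with a Spearman's rho of -0.745 across the 10 genes, against -0.248 in replicate 2. The shortest transcripts, those of Ddit3 (969 bases), Sdf2l1 (1108 bases) and Creld2 (1366 bases), were among the 4 with the largest differences, and the longest, Dnajc3, had the lowest. After a lowess correction for length within each library, the log2 fold changes were 0.25 for Sdf2l1, 0.19 for Creld2, 0.09 for Pdia6 and -0.15 for Ddit3, and the median of the 10 was -0.05. Hspa5 was at 0.17 after the correction and 0.15 before it.

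By summed CPM, Paneth cell and pancreatic acinar markers were also highest in replicate 1, while goblet cell markers were not. The summed CPM of 12 listed Paneth cell markers (of 13 looked up) were 28783 and 23605 in Ctrl crypts, 44217 in Gli1-PtgscKO replicate 1 and 23469 in replicate 2. Their median log2 fold change was 0.31, and -0.06 after the length correction. The 4 of 11 acinar markers listed in both tissues summed to 204 and 146 in Ctrl, 332 in replicate 1 and 177 in replicate 2. Over the 5 acinar markers listed in crypts the median log2 fold change was 0.67, and 0.45 after the length correction. The genes Cpa1, Cela2a, Cela3b, Prss2, Amy2a5 and Cel were not listed in crypts, and Cpb1 was not listed in villi. The 12 goblet cell markers were at 5668 and 6129 in Ctrl and at 5553 and 5177 in Gli1-PtgscKO crypts. Gene by gene, 9 of the 12 goblet cell markers had estimates above 0, with a median log2 fold change of 0.46, and 0.12 after the length correction. Within them Muc2, the main gel-forming mucin, was called lower (log2 fold change -1.13). The 5 of 11 gastric markers listed in both tissues summed to 1330 and 1676 in Ctrl and to 5183 and 3386 in Gli1-PtgscKO crypts. Of the 10 gastric markers listed in crypts, 8 were called higher, where 0.173% of all genes were. The study had already reported raised gastric genes, most of this list among them, and lower Muc2 from the same crypt libraries. These calls repeat that report and are no separate check of it. The part of these marker groups in the values of the 10 genes was not tested. In bulk libraries fewer cells of a type cannot be told apart from less RNA per cell.

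Beyond the 10 genes, 115 other genes of the ER stress and secretion lists were measured in crypts, and limma-trend called 0 of them in either direction. At an unadjusted p below 0.05 there were 0 by limma-trend, 0 by edgeR and 1 by DESeq2. Their median log2 fold change was -0.04, and 12 separated higher and 15 lower, together 23.5% beside the 21% of all genes. By role, the median was 0.07 over 23 other chaperones and oxidoreductases, -0.03 over 14 sensors and their transcription factors, and -0.06 over 16 targets of the PERK, ATF4 and CHOP branch. It was 0.07 over 16 genes of ER-associated degradation, 0.03 over 24 genes of translocation and N-glycosylation, and -0.15 over 22 genes of ER to Golgi transport.

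Cebpb, a transcription factor gene of the PERK branch list, had the highest estimate (log2 fold change 0.88 ± 0.58, SE), from 737.5 and 521.2 normalized counts in Ctrl and 2198 and 594.5 in Gli1-PtgscKO crypts. Only replicate 1 was high. Sec61g, a subunit of the translocation channel, had 809.6 and 625.6 in Ctrl and 1675 and 673.8 in Gli1-PtgscKO crypts (log2 fold change 0.58 ± 0.44, SE). For Pdia2, a disulfide isomerase gene, both Gli1-PtgscKO libraries were above both Ctrl libraries, at 73.1 and 136.8 in Ctrl and 170.0 and 158.7 in Gli1-PtgscKO crypts (log2 fold change 0.71 ± 0.45, SE). The same held for Creb3l3, which encodes an ER-bound transcription factor, at 1460 and 1764 in Ctrl and 2325 and 2153 in Gli1-PtgscKO crypts (log2 fold change 0.48 ± 0.24, SE). Among the low ends, Atf6 was at 1148 and 1402 in Ctrl and 641.0 and 1378 in Gli1-PtgscKO crypts (log2 fold change -0.43 ± 0.39, SE). Sec24b, a COPII coat gene, separated lower, from 1595 and 1567 to 812.0 and 1430, though its log2 fold change of -0.55 ± 0.32 (SE) was not called.

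The remaining ends of the lists were of the same order. Creld1 (-0.58) was the lowest of the chaperones and Vldlr (-0.45) the lowest of the PERK branch list. Selenos (0.25) and Edem3 (-0.27) bounded ER-associated degradation, Stt3a (-0.35) was the lowest of the glycosylation list and Kdelr2 (0.20) the highest of the transport list, all as log2 fold changes. None was called.

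**Figure D2:**
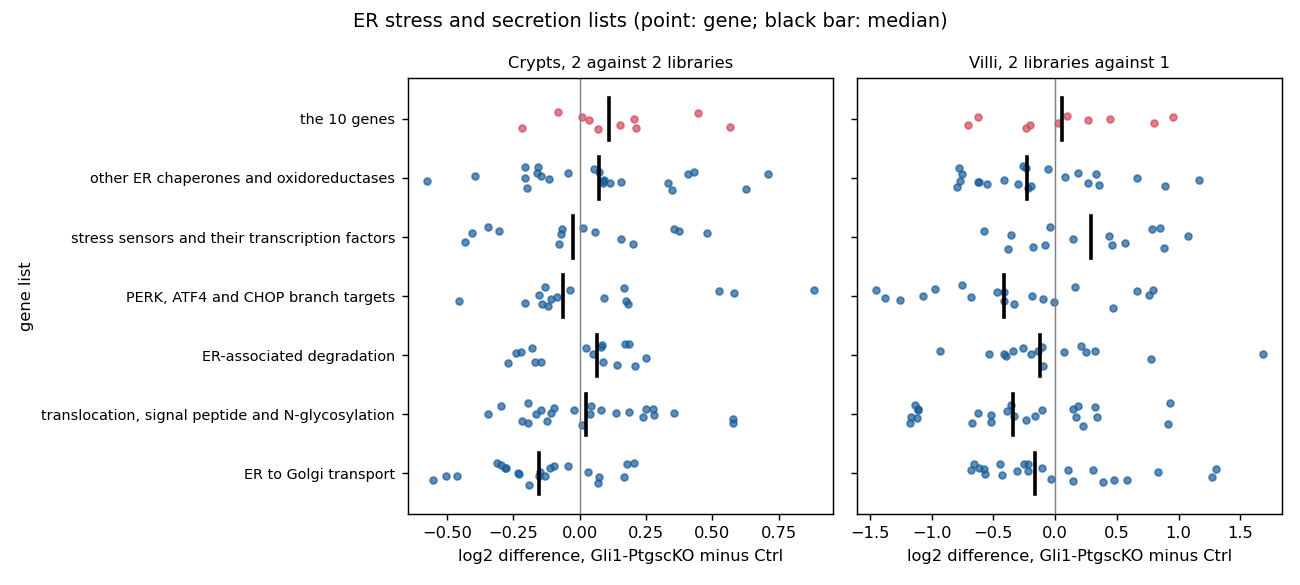
Log2 difference between Gli1-PtgscKO and Ctrl (x axis) for every listed gene of the 10-gene group and of 6 related lists (y axis), in crypts on the left and in villi on the right, each point a gene and each black bar the list median. In crypts the list medians lie between -0.15 and 0.11, and in villi between -0.42 and 0.29.

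In villi, both Gli1-PtgscKO villi lay above the Ctrl library for 5 of the 10 genes and below it for 4, where 43.7% and 44.2% of all 12701 genes did so, and 0 of the 10 passed a 2-fold mean difference, which 22.9% of all genes did. These shares are near those of all genes, and with 1 Ctrl library there is no replicate check on the differences. Hspa5, Hsp90b1, Dnajc3, Pdia6 and Ddit3 were the 5 above, and Xbp1, Dnajb9, Sdf2l1 and Creld2 the 4 below. The median log2 difference of the 10 was 0.06, beside -0.01 over all genes.

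Dnajc3 showed the greatest difference, at 546.8 normalized counts in the Ctrl villus library and at 1136 and 985.2 in the Gli1-PtgscKO libraries (log2 difference 0.95). Hsp90b1 was at 1700 in Ctrl and at 3211 and 2717 in Gli1-PtgscKO villi (log2 difference 0.80). Hspa5 was at 2921 in Ctrl and at 4324 and 3654 in Gli1-PtgscKO villi (log2 difference 0.44). For each of these genes the lower Gli1-PtgscKO library was farther from Ctrl than from the other Gli1-PtgscKO library, by the least margin for Hspa5 (0.32 and 0.57 above Ctrl on the log2 scale). Pdia6 was at 1221 in Ctrl and at 1353 and 1259 in Gli1-PtgscKO villi (log2 difference 0.10), and Ddit3 at 97.3 in Ctrl and at 105.5 and 130.4 (log2 difference 0.27, from 84 to 138 reads). Both of these lay above Ctrl by a small margin in at least one library.

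Xbp1 was the lowest relative to Ctrl, at 3064 normalized counts in the Ctrl villus library and at 1799 and 1952 in the Gli1-PtgscKO libraries (log2 difference -0.71). Sdf2l1 was at 427.4 in Ctrl and at 299.7 and 256.0 in Gli1-PtgscKO villi (log2 difference -0.62). Smaller differences were found for Creld2, at 364.9 in Ctrl and 327.2 and 292.7 in Gli1-PtgscKO villi (-0.24), and for Dnajb9, at 520.1 and then 480.9 and 422.1 (-0.21). Pdia4, at 668.4 in Ctrl, had one Gli1-PtgscKO library above (752.3) and one below (609.5).

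**Figure D3:**
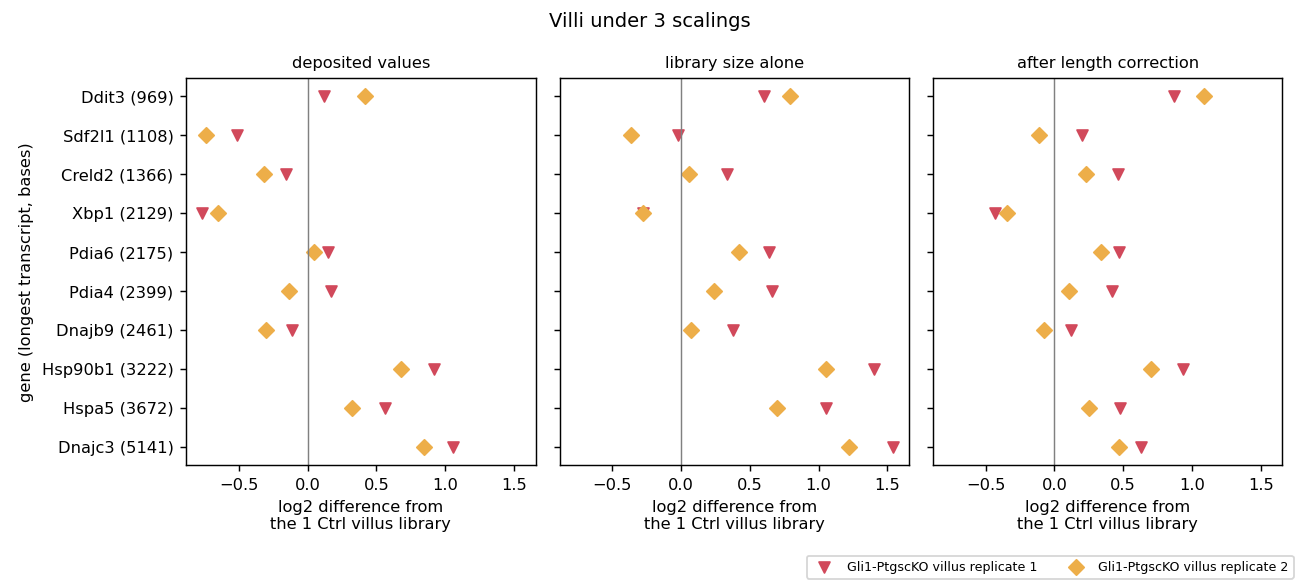
Log2 difference of each Gli1-PtgscKO villus library from the 1 Ctrl villus library (x axis) for the 10 genes ordered by transcript length in bases (y axis), for the deposited values, after scaling by library size alone and after length correction. Hspa5, Hsp90b1, Dnajc3, Pdia6 and Ddit3 lie above Ctrl and Xbp1 below it in all 3 panels, while Dnajb9, Sdf2l1, Creld2 and Pdia4 do not keep their side.

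How the villus libraries were scaled decided the side of several genes. Scaling by library size alone moved the median of all genes from -0.01 to 0.42, and the median of the 10 from 0.06 to 0.49. Relative to that shift, Dnajc3 (1.38), Hsp90b1 (1.23) and Hspa5 (0.88) were still high and Xbp1 (-0.28) and Sdf2l1 (-0.19) low, while Creld2 (0.19) and Dnajb9 (0.22) came out above 0 yet below the shifted median. After the length correction the log2 differences were 0.98 for Ddit3, 0.82 for Hsp90b1, 0.55 for Dnajc3, 0.40 for Pdia6, 0.36 for Hspa5 and -0.39 for Xbp1. Those of Sdf2l1 (0.04) and Dnajb9 (0.02) were then close to 0, and Creld2 (0.35) turned. Across the 10 genes the uncorrected villus difference followed transcript length with a Spearman's rho of 0.648, the opposite sign to replicate 1 of the crypts.

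Plasma cells are professional secretory cells that depend on Xbp1. In villi, 8 of the 9 listed plasma and B cell markers were lower than the 1 Ctrl library by more than 2-fold, beside 9.46% of all genes. In crypts the 7 listed markers had a median log2 fold change of -0.42, where Xbp1 was at 0.07. The 7 of 11 plasma and B cell markers listed in both tissues summed to 755 CPM in the Ctrl villus library and to 175 and 266 in the Gli1-PtgscKO villi. Igkc, an immunoglobulin light chain gene, had a log2 difference of -2.84 and Jchain, which joins IgA and IgM, one of -2.09, while Tnfrsf17 and Derl3 were not listed. The leukocyte markers other than B cell, 8 genes listed in both tissues and without Cd68, were at 751 in Ctrl and at 627 and 729 in Gli1-PtgscKO villi. Summed Paneth cell markers were 635 in Ctrl and 1165 and 783 in Gli1-PtgscKO villi, and stem cell markers 173 in Ctrl and 408 and 297. The part of plasma, Paneth or crypt cells in the villus values of the 10 genes was not tested.

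The 10 genes were also set side by side between the tissues, as CPM, here scaled to the reads on the 11227 genes listed in both. The tables were normalized separately, so these levels were described and not tested. Together the 10 genes made up 2184 to 2597 CPM in the 4 crypt libraries and 684.8, 1149 and 946.8 in the Ctrl and the 2 Gli1-PtgscKO villus libraries. For 8 of the 10 every crypt library was above every villus library, which held for 52.3% of all genes, and for 1, Ddit3, every villus library was above every crypt, which held for 11.1%. The median log2 ratio of crypts to villi was 1.05 over the 10 genes and 0.79 over all genes. With the median-ratio scaling used by DESeq2, applied over both tables, the same figures were 0.28 and 0.01, with 4 of the 10 higher in all crypts (27.6% of all genes) and Ddit3 again higher in all villi (27.8%).

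Hsp90b1 showed the widest gap between the tissues in Ctrl mice, at 751.7 and 638.4 CPM in Ctrl crypts and 101.0 in the Ctrl villus library, a ratio of 6.88. The ratio was 2.61 in Gli1-PtgscKO mice, at 608.5 and 637.2 in crypts and 267.6 and 209.5 in villi. Hspa5 was at 813.7 and 610.6 in Ctrl crypts against 173.5 in the Ctrl villus library (ratio 4.10), and at 787.3 and 704.4 against 360.3 and 281.8 in Gli1-PtgscKO mice (ratio 2.32). Dnajc3 followed the same pattern, with a ratio of 5.67 in Ctrl and 1.79 in Gli1-PtgscKO mice. With the median-ratio scaling the ratios in Ctrl and Gli1-PtgscKO mice were 3.09 and 1.72 for Hsp90b1, 1.84 and 1.53 for Hspa5, and 2.55 and 1.17 for Dnajc3, and the crypts and villi then overlapped for Dnajc3. On the CPM scale the villus levels of all 3 genes were higher in the Gli1-PtgscKO libraries. Whether the gap between tissues differed between genotypes was not tested.

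Pdia4 was higher in crypts by ratios of 4.39 in Ctrl and 3.09 in Gli1-PtgscKO mice, and Pdia6 by 3.46 and 2.65. With the median-ratio scaling the ratios were 1.97 and 2.03 for Pdia4 and 1.55 and 1.75 for Pdia6, so that the Gli1-PtgscKO ratio was then the higher one. For Xbp1 the tissues were closer, at 241.7 to 275.9 CPM in crypts and 149.9 to 182.0 in villi, with ratios of 1.42 in Ctrl and 1.72 in Gli1-PtgscKO mice. Creld2 (1.60 in Ctrl), Dnajb9 (1.60) and Sdf2l1 (1.09) were also close, and with the median-ratio scaling the Ctrl ratios of Xbp1, Dnajb9, Creld2 and Sdf2l1 were below 1. The levels of Sdf2l1 overlapped between tissues, at 23.6 to 50.1 in crypts and 19.7 to 25.4 in villi.

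Ddit3 was the exception of the group. It was at 3.99, 3.04, 4.20 and 3.51 CPM in the crypts and at 5.78, 8.79 and 10.1 in the villi, so that the villus level was 1.65 times the crypt level in Ctrl and 2.44 times in Gli1-PtgscKO mice. With the median-ratio scaling its ratio of crypts to villi was 0.272 in Ctrl and 0.268 in Gli1-PtgscKO mice, so the direction held, the gap was wider and the values of the genotypes were close. The Ctrl villus library was the lowest of the 3 villi.

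**Figure D4:**
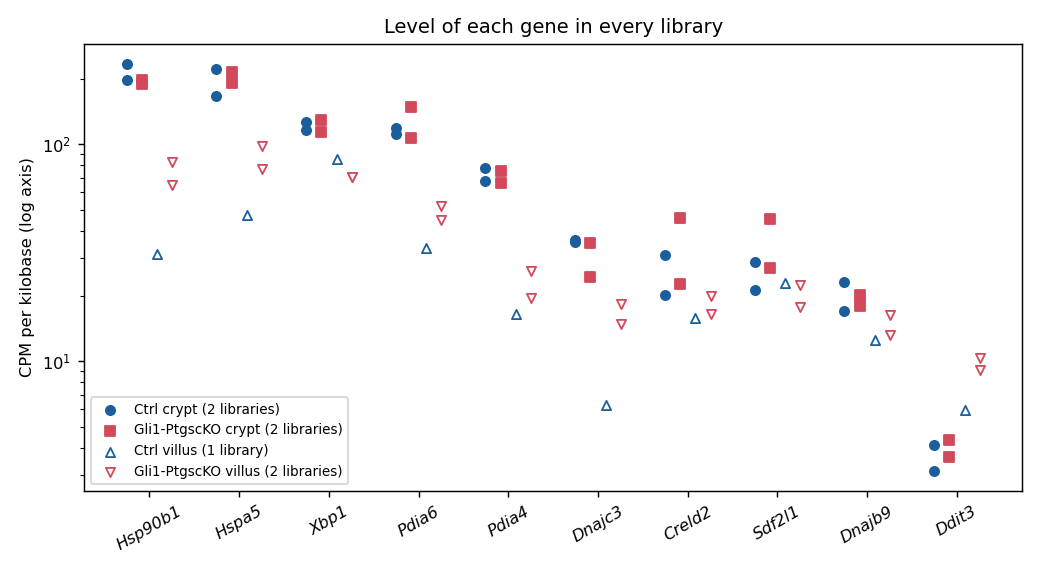
Level of each gene (x axis) in CPM per kilobase of its longest transcript (y axis, log scale) in every library, with filled symbols for crypts and open symbols for villi, blue for Ctrl and red for Gli1-PtgscKO. Hsp90b1 and Hspa5 lead in crypts, Xbp1 leads in the Ctrl villus library, and Ddit3 alone is higher in all villi.

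Per kilobase of the longest transcript, the order of levels in Ctrl crypts was Hsp90b1 (216 CPM per kilobase), Hspa5 (194), Xbp1 (122), Pdia6 (115), Pdia4 (72.6), Dnajc3 (35.8), Creld2 (25.5), Sdf2l1 (25.0), Dnajb9 (20.1) and Ddit3 (3.62). Over the 4 crypt libraries the neighbours Hsp90b1 and Hspa5 overlapped, as did Xbp1 and Pdia6, and each neighbouring pair from Dnajc3 to Dnajb9. There was no overlap between Hspa5 and Xbp1, Pdia6 and Pdia4, Pdia4 and Dnajc3, or Dnajb9 and Ddit3. In the Ctrl villus library the order differed, with Xbp1 first (85.5), then Hspa5 (47.2), Pdia6 (33.3) and Hsp90b1 (31.3), and Ddit3 again last (5.96).

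In the other lists, every crypt library was above every villus library for 14 of 22 chaperones and oxidoreductases, 9 of 14 sensors and transcription factors, 8 of 16 PERK branch targets and 8 of 16 genes of ER-associated degradation. The count was 18 of 24 for translocation and N-glycosylation and 7 of 22 for ER to Golgi transport, to be read against the 52.3% of all genes.

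The median profile of the 10 genes, centred within each table on the log2 scale, was shared by many genes. Among the closest were Nop2, Sar1a, Polr3e and Trmt2a, with root mean square differences of 0.030, 0.038, 0.040 and 0.044 over 7 libraries, and 2141 of the 11227 genes lay within 0.2. The 10 genes themselves differed from their median by 0.093 (Dnajb9) to 0.373 (Dnajc3).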

How the data were processed

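RNA-seq libraries of mouse small intestinal crypts and villi were analysed (2 Ctrl and 2 Gli1-PtgscKO libraries per tissue by label). Per the labels and the methods of the study, the authors mapped reads to mm10 with STAR and used DESeq2. Versions, the counting tool, its strand setting and the annotation are not given in the sources used here, and the sources name different RNA and library kits. The deposited values are a signal, counts divided by a DESeq2 size factor. Every value was a whole number of reads within 0.001 of a read. The columns of the authors' own comparisons (mean, fold change, standard error, statistic, p and adjusted p) were not used.

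Members and lists were chosen with earlier results of these data known. Genes were named by rule: all members, the extremes of each pathway list, the first markers of each list, any called gene and the 5 genes nearest to the members' median profile, of which 1 is not reported here. For crypts, a pseudocount of 1 was added, values were put on the log2 scale, and all 11554 genes (mean at least 1) were fitted by limma-trend (version 3.58.1 under R 4.3.3) without a block. P-values were adjusted by Benjamini-Hochberg, and the script was tested on simulated data. This test, not a count test, was used because the tables hold normalized values. The recovered reads were tested with edgeR 4.0.16 and DESeq2 1.42.0 as alternatives. Gene and transcript positions are from GENCODE M21 and promoters from RefSeq. The length correction was a lowess fit (span 0.3) of each library's deviation on log transcript length. The 95% intervals cover the spread between libraries only.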

Additional observations from a re-analysis of the deposited data

How the results depend on the processing

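Under 13 settings the crypt estimates of the 10 genes kept their sign and their side of the threshold in 109 of 130 refits. The replicate block, no filter and a filter of at least 10 reads left the estimates unchanged by construction. Those refits could not change a sign. Sdf2l1 and Creld2 were called in the 2 refits without Gli1-PtgscKO crypt replicate 2, and 8 genes changed sign, none of them called, in 19 refits. With library size alone the log2 fold changes of Xbp1, Dnajb9 and Pdia4 were -0.0034, -0.063 and -0.038. After the length correction, with or without the replicate block, those of Xbp1, Dnajb9, Pdia4 and Ddit3 were -0.049, -0.069, -0.051 and -0.15, and the median of the 10 was -0.05. With 1 crypt library left out, the range was -0.087 to 0.23 for Xbp1, -0.029 to 0.33 for Hspa5, -0.17 to 0.011 for Hsp90b1, -0.18 to 0.20 for Dnajb9, -0.042 to 0.11 for Pdia4, -0.092 to 0.50 for Pdia6 and -0.12 to 1.01 for Creld2. The members called numbered 0 to 2 and the other pathway genes called 0 to 6 when each crypt library was left out in turn, the highest without Gli1-PtgscKO replicate 2, where Sdf2, Sec61b, Sec61g, Fkbp2, Cebpb and Sec16a were called. The members whose groups did not overlap numbered 2 with library size alone (Hsp90b1 and Dnajc3, lower; 23% of all genes), 2 after the length correction (Sdf2l1 higher, Dnajc3 lower; 28.3% of all genes) and 3 to 7 with 1 library left out, where fewer samples make separation easier. The edgeR and DESeq2 fits give no such count. In villi the median log2 difference of the 10 was 0.49 with library size alone, 0.36 after length correction and -0.045 to 0.13 with 1 Gli1-PtgscKO library left out, and the cause was not tested. Across tissues the median log2 ratio was 0.28 with the median-ratio scaling, which was chosen after seeing the data.

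The labels do not say whether libraries with the same replicate number belong together. Over genes, the deviations of same-numbered crypt libraries from their group means had a correlation of 0.247. With 2 libraries per group the deviations within a group mirror each other, so the 2 numbers give no separate values. A pairing was neither shown nor excluded. With the replicate block, 0 of the 10 were called and their median of 0.11 could not change, while the calls over all genes went from 21 to 78. With 2 libraries per group the printed 95% intervals were wide, differences inside them were not excluded, and villus differences have no replicate check on Ctrl.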

Other observations

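In villi, 4 of the 19 listed genes of the PERK, ATF4 and CHOP branch, Asns, Trib3, Shmt2 and Chac1, were lower than the 1 Ctrl library by more than 2-fold, beside 9.46% of all genes lower and 13.4% higher. Library size scaling shifts the villus genes nearly together and could not change their side. On it they lay from -1.04 (Chac1) to -0.64 (Shmt2), and only Chac1 was past 2-fold. After length correction they stayed lower, from -1.02 (Asns) to -0.80 (Shmt2), and only Asns was past 2-fold. Trib3 and Chac1 were not listed in crypts. The 4 genes were named after their values were seen. Other genes of the list did not keep a side, such as Psat1 (-0.19, and 0.24 with library size alone). Asns, asparagine synthetase, was at 446.0 normalized counts in Ctrl and at 171.3 and 171.0 in Gli1-PtgscKO villi (log2 difference -1.38). Trib3, a pseudokinase gene downstream of ATF4 and CHOP, was at 622.0 and then 266.1 and 253.1 (-1.26), and Shmt2, of mitochondrial serine metabolism, at 573.4 and then 246.2 and 301.3 (-1.07). Chac1, which degrades glutathione, had 25 reads in Ctrl and 19 and 7 in Gli1-PtgscKO villi. Atf4 itself was at 2530 in Ctrl and at 2453 and 2321, and Ddit3 lay above Ctrl.

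Genes of translocation and N-glycosylation lay on both sides of the Ctrl villus library. Past a 2-fold difference and lower were Sec61b, Sec61g, Ssr2, Ssr4, Ddost and Dad1, 6 of 24 listed genes, beside 9.46% of all genes. Their log2 differences ran from -1.17 (Ssr4) to -1.11 (Ddost). On the other side Ssr3 (0.93) and Sec63 (0.91) were higher. In the remaining lists, higher by more than 2-fold were Edem3 (1.68), Mia3 (1.30), Mia2 (1.27), Dnajc1 (1.16) and Ern2 (1.08). These were 1 of 16 genes of ER-associated degradation, 2 of 22 of ER to Golgi transport and 1 of 22 chaperones and oxidoreductases. Ern2 was 1 of 14 sensors and transcription factors. Each share was below the 13.4% of all genes that were higher past 2-fold. Scaling by library size alone shifts the villus genes nearly together, so it could not change the side of genes past 2-fold. On that scale the 6 lower genes were within 2-fold, from -0.74 (Ssr4) to -0.68 (Ddost), and Edem3 was at 2.11. After length correction the genes past 2-fold also kept their side, with Sec61b at -0.38 and Edem3 at 1.09. There is no replicate check on the Ctrl villus library, and the part of cell composition or transcript length in these differences was not tested.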
